A study of Salmo salar with 12 samples.

Results

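The largest increases among transcripts that every array could measure were examined in livers of Atlantic salmon parr kept for 48 h in water with depleted uranium (DU). Liver RNA from 4 groups of fish was measured: a control without U (0 mg/L), a low U group at 0.25 mg/L, a medium U group at 0.5 mg/L and a high U group at 1.0 mg/L, with 3 RNA samples per group and each sample on 1 array of a custom salmonid design. U was given as dissolved uranyl acetate dihydrate in a static system in the dark, the fish were not fed, the control fish went through the same acclimation and handling without U, and no replicate tanks are described. Of the 55468 salmonid probes on the array, 20456 were well above background on all 12 arrays. In 1928 of these (9.43%) each of the 9 exposed arrays lay above the highest of the 3 control arrays, and the 100 with the largest mean difference between exposed and control arrays are described here. Because this difference chose them, it is given as a description, and no test of it supports anything here.

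The liver is the main site where fish and other vertebrates conjugate foreign and endogenous compounds before excretion, make plasma proteins and run carbohydrate, lipid and amino acid metabolism. In glucuronidation, UDP-glucuronosyltransferases (UGTs) of the endoplasmic reticulum join glucuronic acid, taken from UDP-glucuronic acid, to bile pigments, steroids and xenobiotics, and the products leave the cell through export pumps of the canalicular and basolateral membranes. The secretory pathway that carries UGTs and plasma proteins is supplied by translocon subunits, folding enzymes and chaperones, and its capacity is set in part by transcription factors such as XBP1.

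Values are log2 intensities relative to the 75th percentile of the probes on the same array, so that a value of 1 more stands for a signal brighter by a factor of 2 relative to that array. Probes were designed on expressed sequence tag (EST) contigs and carry no gene name, genome coordinate or sequence in the array files used here. Names were obtained by matching the fold changes of the study's list of differentially expressed genes (DEGs), which gave a name to 79 of the 100 probes and left 21 without one. A name therefore exists only where the study itself called the transcript on these same arrays, and it rests on similarity to genes of other species. The named members are grouped by role below, in groups drawn up with their values known. Of the 100 probes, 80 came from cGRASP contigs, 16 from rainbow trout UniGene clusters and 4 from Atlantic salmon UniGene clusters, against 71.7%, 20.1% and 7.55% of all always-detected probes. None of the 100 was an antisense probe, a class that made up 0.626% of the always-detected probes.

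Over the 100 probes the exposed arrays exceeded the control arrays by a median of 1.92 (log2), within a range of 1.61 to 3.02. This corresponds to 3.06-fold to 8.14-fold higher signal, with more than 4-fold in 44 probes. The median difference over all 29456 probes tested was 0.04. The distance between the lowest exposed array and the highest control array was 1.01 in the median member, and it was over 1 in 52 members, of which 49 carried a gene name. Against the control, limma (adjusted p under 0.05 and at least 1.5-fold higher) called 95 members in the low U group, 99 in the medium U group and 97 in the high U group, where 4.02%, 6.68% and 2.58% of all tested probes were called in the same direction. With all exposed arrays against the control it was 100 members, against 7.96% of all tested probes. Nothing is read from these counts, since the members were chosen on the same contrast and the choice largely fixed them. With only the compared groups in the fit 0 members were called in the low and 0 in the high U group, against 95 in the medium U group. Without high U replicate 2 or 3 the high U count was 50 or 60. The share of all tested probes called in these fits is not given here, so nothing about the members is read from these counts either.

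**Figure D1:**
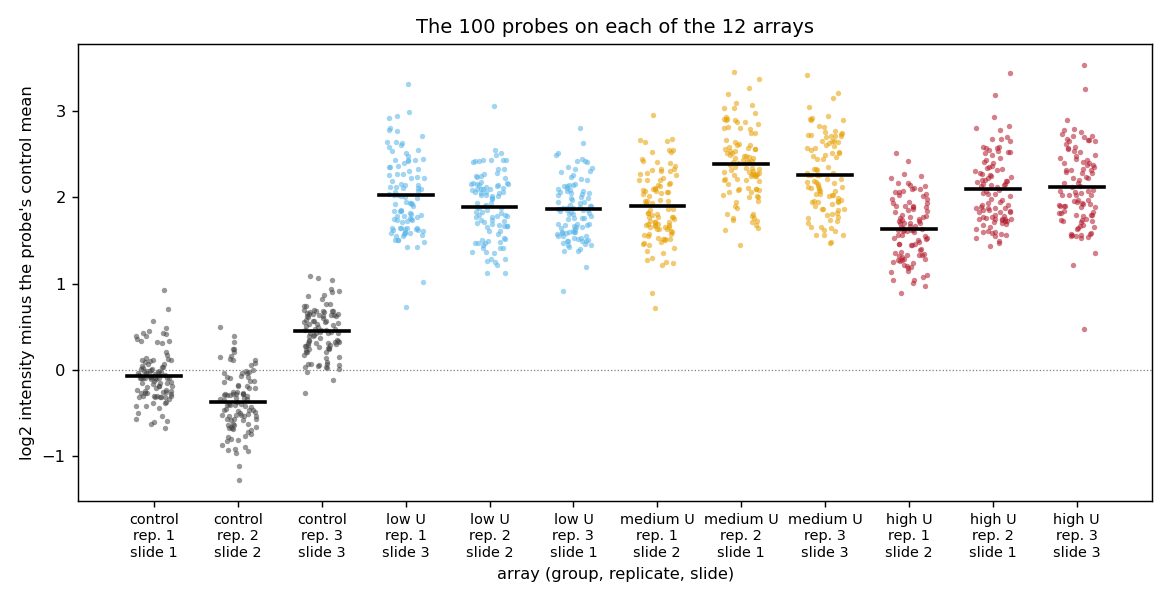
Log2 intensity of each of the 100 probes minus its own control mean (y axis) on each of the 12 arrays (x axis, with group, replicate and slide), 1 point per probe, with a black bar at the array's mean. The 9 exposed arrays have means of 1.64 to 2.39, and the control arrays lie at -0.07, -0.37 and 0.45.

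Averaged over the 100 probes, the relative log2 intensity was 3.03, 2.91 and 2.86 on the low U arrays, 2.90, 3.39 and 3.27 on the medium U arrays and 2.64, 3.10 and 3.12 on the high U arrays, against 0.93, 0.63 and 1.45 on the control arrays. The exposed and the control arrays did not overlap in this mean, as the selection required for each probe. Each of the 3 slides carried 1 array of every group. Set against the control array of the same slide, the mean was higher by 1.58 to 2.28 in the low U group, by 1.82 to 2.46 in the medium U group and by 1.67 to 2.17 in the high U group. The smallest of these 3 differences at each dose came from slide 3, which held control replicate 3. That control array had the highest control value in 79 of the 100 members and control replicate 2 the lowest in 72. Among the 1828 other always-detected probes without overlap this was so in 60.6% and 59.7%, and over all always-detected probes in 40.2% and 38.7%. The SD of the 3 control arrays had a median of 0.49 over the members, wider than that of the low U (0.19), medium U (0.26) and high U (0.32) arrays, and in the always-detected probes the corresponding medians were 0.29, 0.24, 0.24 and 0.23. The part of control replicate 3 in the size of single differences was not tested. Within slide 3 alone the 100 differences ran from 0.82 to 2.56. That all were positive was fixed by the selection.

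The arrays themselves differed in brightness. The 75th percentile that each value is set against was an intensity of 113 to 138 on low U arrays, 122 to 154 on medium U arrays and 68.8 to 94.7 on high U arrays, against 55.7 to 73.8 on control arrays. The probes well above background were 49.2% to 55.1%, 54.6% to 61.5% and 45.7% to 49.2% of all in the low, medium and high U groups, against 45.1% to 49.3% in the control. No spot was saturated. Scaled to 7 spike-in probes instead, the median difference of the 100 members was 2.59, while the median of all tested probes was then 0.71. In bulk liver, more RNA of a kind per cell and more cells that hold it cannot be told apart.

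The glucuronidation group had a median difference of 2.32 over 10 members. It held 8 probes named as UGTs and 2 probes for UGP2, UDP-glucose pyrophosphorylase, which makes the UDP-glucose from which UDP-glucuronic acid is formed. The probe with the largest difference of all, Ugt1 (UDP glucuronosyltransferase 1 family b, contig 5664519), measured 3.70 to 4.80 on the exposed arrays (median 4.22), against 1.13, 0.72 and 1.93 in the control. The exposed arrays were thus higher by 3.02, or 8.14-fold, and the lowest of them lay 1.77 above the highest control array. Its unscaled intensity was 940 to 3825 on the exposed arrays, against 91.9 to 271 in the control. A second probe named as a UGT1 precursor, polypeptide a3 (OM_UG27_56233889), measured 4.20 to 5.58 (median 4.83), against 2.30, 1.84 and 2.78, a difference of 2.56.

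The remaining UGT probes were higher by 1.86 to 2.44. UGT5B4, of a UGT family described in fish, measured 0.80 to 2.10 on exposed arrays (median 1.58), against -0.91, -1.48 and -0.44 in control arrays, a difference of 2.44. The other 2 probes with the symbol Ugt1 were described as UGT2 polypeptide a2 (contig 5686309, difference 2.34) and a3 (contig 5633598, difference 2.27), so the symbol does not separate the UGT1 and UGT2 families here. After each probe was centred on its own mean, these probes and the leading Ugt1 probe differed from each other by up to 1.00 on a single array. Probes for near-identical UGT genes may share target RNA, and the counts above are of probes, not of genes. Across the study's named probes, the words that define this group found 14 tested probes, and all 14, of which 10 are the members chosen for being higher, were called higher in exposed than in control livers. Of all 816 named and tested probes, which carry names because the study called them, 542 were called higher and 229 lower, and this is the background of each such count. Of the 4 that were no members, a UGT 2a1-like probe was higher by 1.31 and a further Ugt1 probe by 2.53, though it was well above background on only 2 of the 3 control arrays, and the other two were not well above background on any control array, so that no fold is given for them.

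The 2 UGP2 probes, on contigs 5636526 and 5442285, behaved alike. They measured 3.41 to 4.32 (median 3.80), against 1.36, 1.22 and 2.14 in the control, and 2.75 to 3.84 (median 3.18), against 0.74, 0.74 and 1.75. Their differences were 2.30 and 2.18, and once centred they never differed by more than 0.21 on an array.

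**Figure D2:**
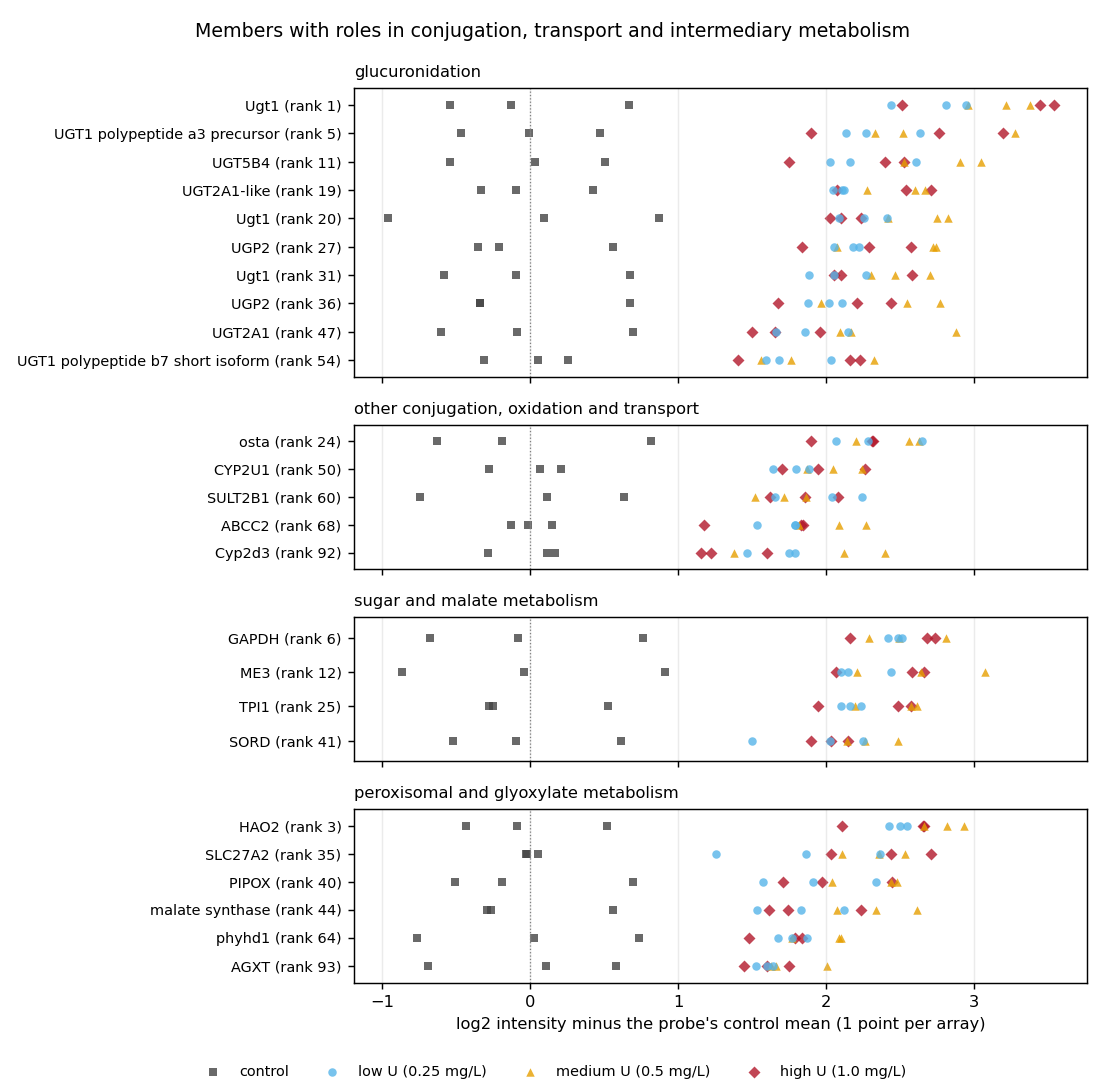
Log2 intensity minus the probe's control mean (x axis) for the members (rows, ordered by rank in each panel) with roles in glucuronidation, other conjugation and transport, sugar and malate metabolism (4 of its 5 members), and peroxisomal and glyoxylate metabolism, 1 point per array. Grey squares are control arrays and coloured points the 3 doses. In each row the exposed points lie to the right of all control points, by 1.77 in the top row and by 0.74 in the row for phyhd1.

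Further members act in conjugation, oxidation and transport. Osta, the alpha subunit of the organic solute transporter that moves bile acids and steroids across the basolateral membrane, measured 6.86 to 7.61 (median 7.27) on exposed arrays, against 4.77, 4.34 and 5.78 on control arrays, a difference of 2.32. ABCC2, the canalicular pump that exports glucuronides and other conjugates into bile, measured 1.69 to 2.78 (median 2.33), against 0.50, 0.38 and 0.66, a difference of 1.79. SULT2B1, a sulfotransferase acting on sterols, was higher by 1.84, and the cytochrome P450 members CYP2U1 and Cyp2d3 by 1.93 and 1.65. The 3 control arrays lay close together for ABCC2, CYP2U1 and Cyp2d3 (SD 0.14, 0.25 and 0.25), and apart for osta and SULT2B1 (SD 0.74 and 0.70). The words for this group found 13 named and tested probes, 5 of them members, of which 11 were called higher and 1 lower, the aromatase probe cyp19a1 at -1.20. These words missed a further named ABCC2 probe, described as multidrug resistance associated protein 2. It was no member and was called lower, so the probes named ABCC2 went in opposite directions.

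Enzymes of sugar metabolism formed a group of 5 members with a median difference of 2.38. GAPDH, which oxidises glyceraldehyde-3-phosphate in glycolysis, measured 6.36 on its lowest exposed array, with a median of 6.68 and a range of 0.64 over the exposed arrays, against 4.11, 3.52 and 4.96 on control arrays. It differed by 2.51, and the exposed arrays lay closer together (SD 0.21) than the control arrays (SD 0.72). TPI1, triosephosphate isomerase, was higher by 2.32, ME3, the mitochondrial NADP-dependent malic enzyme, by 2.43, and SORD, sorbitol dehydrogenase, by 2.08. A second named probe for triosephosphate isomerase, tpi1, was no member and was higher by 0.72.

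Among peroxisomal and glyoxylate enzymes, HAO2, a peroxisomal oxidase of 2-hydroxy acids, had the third largest difference of all. It measured 2.49 to 3.31 (median 3.03) on exposed arrays, against 0.29, -0.05 and 0.90 on control arrays, a difference of 2.59. AGXT, which turns glyoxylate into glycine, measured 7.32 to 7.88 (median 7.50), against 5.98, 5.18 and 6.46, a difference of 1.65. PIPOX, which oxidises pipecolic acid and sarcosine, was higher by 2.10, SLC27A2, a very long-chain acyl-CoA synthetase and fatty acid transporter, by 2.18, malate synthase by 2.01, and phyhd1, of the phytanoyl-CoA dioxygenase family, by 1.82. SLC27A2 had the narrowest spread of all members among the control arrays (-1.74, -1.74 and -1.66, SD 0.04), whereas its exposed arrays spanned -0.46 to 1.00. Its control intensities of 16.7 to 22.5 were among the lowest of the members. Over all probe spots the control arrays had medians of 10.3 to 12.8, so this narrow spread was measured near the floor. The words for this group, drawn up with the members known, found 6 named probes, all of them members. Other named peroxisomal genes, such as Pex7, a peroxisomal biogenesis factor, fell outside these words and were no members.

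Mitochondrial proteins gave 11 members with a median difference of 1.79, and most belong to the respiratory chain or its assembly. Members from complex IV were COX7A2L with 2 probes (2.03 and 1.97), the assembly factor Cox15 (1.74) and COX6B1 (1.65). A succinate dehydrogenase probe of complex II was higher by 1.76 and Coq9, needed for ubiquinone synthesis, by 1.67. The 2 COX7A2L probes differed from each other by up to 0.63 on an array after centring.

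Other mitochondrial members were Adck5, an aarF-domain kinase, at 2.29, Aifm1, an oxidoreductase of the intermembrane space that can move to the nucleus in cell death, at 1.99, BCKDHB, of branched-chain keto acid oxidation, at 1.79, and OAT, ornithine aminotransferase, at 1.72. Of the 23 named and tested probes found by the words for this group, 11 of them members, 20 were called higher and 2 lower. The 2 lower ones were NDUFS6 of complex I (-1.34) and mt-co3, the mitochondrially encoded subunit III of complex IV (-1.23). The members were all higher by the selection, while named non-members of complexes I and IV went in both directions. Ndufa3 of complex I (0.92) and a further COX7A2L probe (1.52), for example, were called higher.

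**Figure D3:**
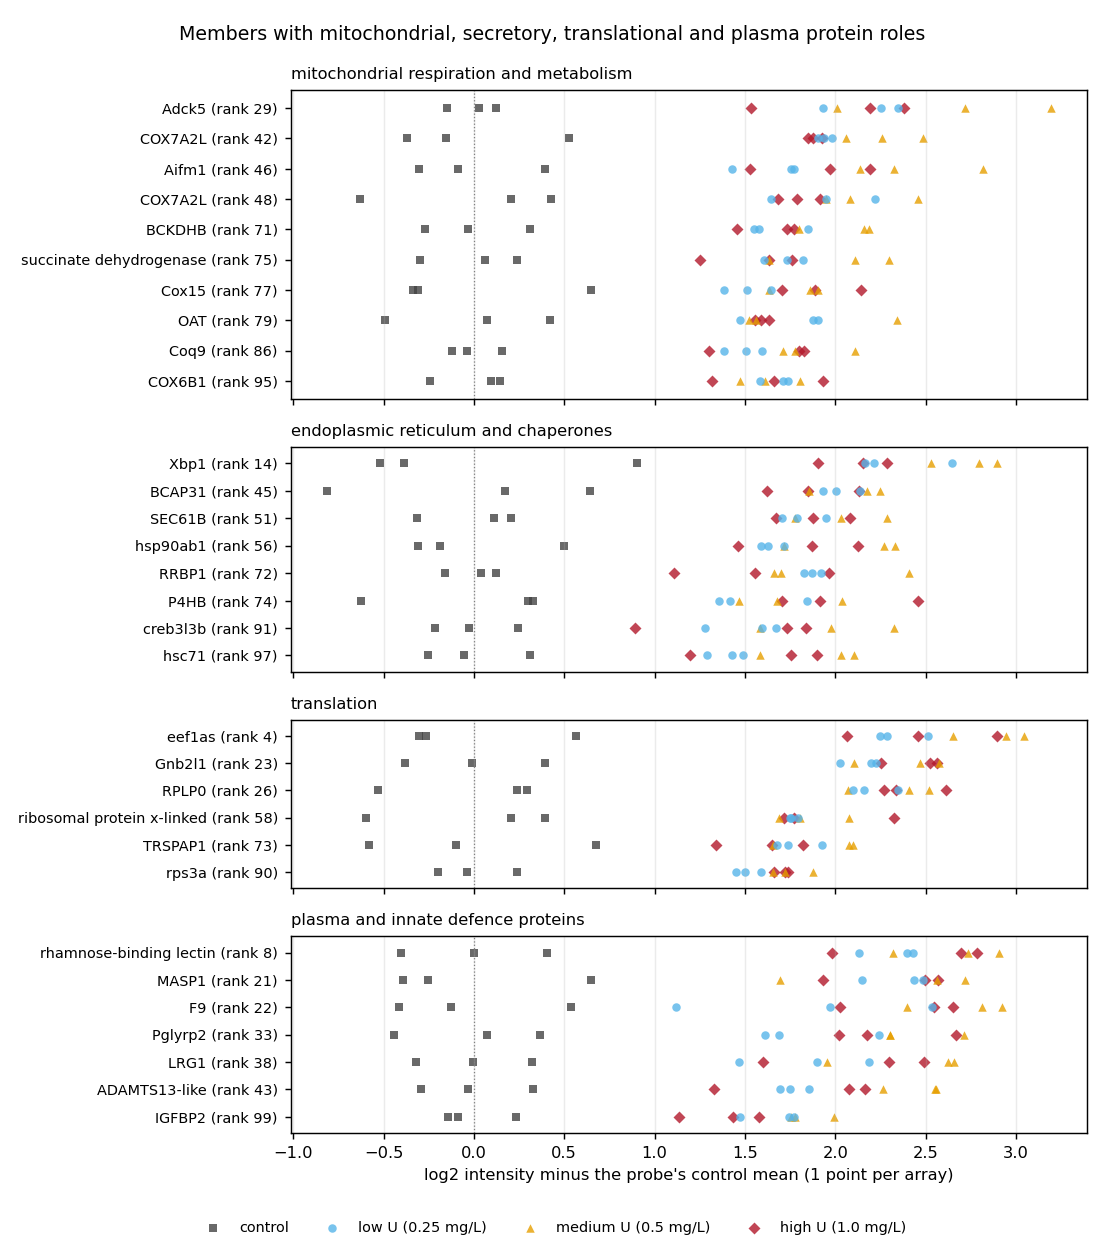
Log2 intensity minus the probe's control mean (x axis) for the members (rows, ordered by rank in each panel) with roles in mitochondria (10 of 11), in the endoplasmic reticulum and folding, in translation and as plasma or innate defence proteins, 1 point per array. Grey squares are control arrays and coloured points the 3 doses. RPLP0 shows the widest gap (1.78), and F9 has a single low U array well below its other exposed arrays.

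In the secretory pathway, Xbp1, a transcription factor of the unfolded protein response, measured 2.13 to 3.12 (median 2.51) on exposed arrays, against -0.16, -0.29 and 1.13 on control arrays. Its difference was 2.40, and control replicate 3 stood apart above the other control arrays. SEC61B, a subunit of the translocon, was higher by 1.91, RRBP1, the ribosome receptor of the rough endoplasmic reticulum, by 1.78, and P4HB, a protein disulfide isomerase, by 1.76. BCAP31, which sorts membrane proteins leaving the endoplasmic reticulum, was higher by 2.00, and the cytosolic chaperones hsp90ab1 and hsc71 by 1.86 and 1.64. Creb3l3b, a liver-enriched membrane-bound transcription factor in mammals, measured 1.89 to 3.32 (median 2.67), against 0.97, 0.78 and 1.24, a difference of 1.65. The 2 other named probes for CREB3L3 went the other way and were called lower at -1.49 and -1.18.

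Translation was represented by 6 members, with a median difference of 2.08, and some of their genes often serve as reference transcripts. Eef1as, elongation factor 1 alpha, measured 3.77 to 4.75 (median 4.22) on exposed arrays, against 1.41, 1.45 and 2.28 on control arrays, a difference of 2.57. RPLP0, a protein of the ribosomal stalk, measured 4.84 to 5.39 (median 5.11), against 2.24, 3.01 and 3.06, with the widest gap of all members (1.78). Gnb2l1, the ribosome-bound scaffold also called RACK1, was higher by 2.33, a probe named ribosomal protein x-linked by 1.85 and rps3a by 1.66. Over the exposed arrays rps3a had the narrowest range of all members (0.43). TRSPAP1, which takes part in selenocysteine incorporation, was higher by 1.78. Of 22 named and tested probes found by the words for this group, 6 of them members, 20 were called higher and 2 lower, among them rps19 (-1.12, well above background on 8 of the 9 exposed arrays). Act-2b, an actin, is a further member often used as a reference, and was higher by 1.64.

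Plasma and innate defence proteins gave 7 members. A rhamnose-binding lectin, of a family that binds bacterial sugars in fish, measured 5.39 to 6.32 (median 5.84) on exposed arrays, against 3.41, 3.00 and 3.81 on control arrays, a difference of 2.49. MASP1, a protease of the lectin pathway of complement, was higher by 2.34, Pglyrp2, a peptidoglycan recognition protein, by 2.19, and LRG1, an acute-phase glycoprotein in mammals, by 2.13. F9, coagulation factor IX, measured 2.01 to 3.82 (median 3.43), against 0.48, 0.77 and 1.43, a difference of 2.33. The low value of F9 was on low U replicate 2, its 2 spots differed by up to 1.68 on an array, and 1 of the 2 spots alone overlapped between exposed and control arrays. In the other 9 members with repeated spots both spots kept the groups apart. An ADAMTS13-like metallopeptidase was higher by 2.03 and IGFBP2, an insulin-like growth factor carrier, by 1.63. The 2 other named probes for igfbp2 were no members and were higher by only 0.61 and 0.98.

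Smaller groups completed the named members. The short-chain dehydrogenases DHRS9, DHRS13 and Rdhe2, of a family that handles retinoids and steroids, were higher by 2.37, 1.83 and 1.70. Gch1 of tetrahydrobiopterin synthesis, ADSL and PRPS2 of purine synthesis and C2orf25, a protein of cobalamin metabolism, were higher by 1.89, 1.69, 1.64 and 2.43. Another named probe with the same description as C2orf25 was no member and was higher by only 1.11. PRDX2, a peroxiredoxin that reduces hydrogen peroxide, measured 0.35 to 1.66 (median 0.99) on exposed arrays, against -1.70, -1.85 and -0.75 on control arrays, a difference of 2.40. HDLBP, the RNA-binding protein vigilin, was higher by 2.17, an acyl-wax alcohol acyltransferase by 2.50 and ACP5, an acid phosphatase, by 1.84. HSPG2, the matrix proteoglycan perlecan and no heat shock protein, was higher by 1.66. SUSD2, a sushi domain protein, was higher by 1.79, MED10, a Mediator subunit, by 1.73, tsku, a small leucine-rich proteoglycan, by 1.68 and TENC1, a tensin, by 1.67. Further named probes for HSPG2, SUSD2, MED10, P4HB and Pglyrp2 were no members, and their values are not given here. A probe named only as the sjchgc07766 protein (2.44) and one matched to an unnamed pufferfish protein (1.86) have no role given here. The 2 probes named for the transmembrane protein C1orf78 homolog were higher by 1.66 and 1.65 and differed by at most 0.20 on an array after centring.

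The 21 members without a gene name differed from the named ones in their spread. Their median difference was 1.86, against 1.99 in the 79 named members, but their gap between the lowest exposed and the highest control array had a median of 0.60, against 1.08. Their exposed arrays had a median SD of 0.42, against 0.29, and their control arrays of 0.65, against 0.46. Names exist only for transcripts that the study called, so this contrast is set in part by how names arose. The probe of contig 5463383 had the second largest difference (2.61), with values of 0.89 to 2.63 (median 2.07) on exposed arrays, against -0.92, -1.70 and 0.28. The 3 narrowest gaps were 0.02 (contig 5673690), 0.05 (OM_UG27_56299935) and 0.15 (OM_UG27_56213842), all in this set, and the first measured 3.76 to 5.54 (median 5.18), against 3.74, 2.25 and 3.09. The widest ranges over the exposed arrays were here as well, at 2.06 (OM_UG27_56299935), 1.89 (contig 5673729) and 1.82 (contig 5650097). For contig 5418591 a spot on low U replicate 2 was marked as an outlier and left out, so its difference of 1.90 rests on 11 values.

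The members spanned the range of measurable brightness. By the mean of the 3 control arrays, the highest intensities were those of the unnamed probe of contig 5642593, at 59608 to 98108 on exposed arrays, against 8235 to 34301 on control arrays, P4HB, at 40411 to 94015, against 8634 to 15811, and AGXT, at 10993 to 36211, against 2023 to 6254. The lowest by the same mean were Adck5, at 49.3 to 349, against 15.0 to 18.0, RRBP1, at 41.0 to 226, against 17.0 to 20.3, and SLC27A2, at 85.9 to 239.7, against 16.7 to 22.5. The control values of Adck5, RRBP1 and SLC27A2 lay near the floor, which limits how their differences and spreads can be read. Intensities of different probes cannot be set against each other as amounts of RNA. At the edge of the selection, PRPS2, IGFBP2 and the unnamed probe OM_UG27_56218593 were just inside with differences of 1.64, 1.63 and 1.61. TMEM19, a second BCAP31 probe and the unnamed probe of contig 5638065 were just outside, each at 1.61.

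Whether the members differed between doses could be tested, because the selection did not use the order of the doses. It did require each exposed array to lie above every control array. Probes that fell to the control level at any dose were thus left out, which limits the dose differences that members can show. No member and none of the 29456 probes tested was called by limma in any of the 3 contrasts between doses or in the F-test over the 3 doses (adjusted p under 0.05, with at least 1.5-fold for the contrasts), and the smallest adjusted p among the members was 0.40. This depended on the scaling: with the arrays scaled to the spike-in probes, which keeps their difference in brightness, limma called 45 members between the medium and high U groups. The share of all tested probes called under that scaling is not given here, so the 45 is not read as a result about the members. At an unadjusted p under 0.05, 5 members were higher in the medium than in the low U group (1.06% of all tested probes) and 0 lower (0.917%), so 5 in either direction against 1.98%. Likewise 5 were lower in the high than in the medium U group (4.08%) and 0 higher (2.47%), 5 in either direction against 6.55%. In the high U group 1 was lower than in the low U group (3.39%) and 0 higher (1.44%), 1 in either direction against 4.83%. In the F-test it was 3 members (4.36%). The methods' one-way test with its post hoc step called 0 members between the low and medium U groups (0.0543% of all tested probes), 1 between the medium and high U groups (0.424%) and 1 between the low and high U groups (0.204%). With the slide as a block, limma called 0 members after adjustment. At an unadjusted p under 0.05 the medium and low U groups were then set apart in 15 members (3.1%), the high and medium U groups in 16 (10.3%) and the high and low U groups in 5 (7.02%). The standard error of these contrasts was 0.29 in the median member, which with 3 arrays per dose limited what could be separated. It pooled the spread of all 4 groups, so the control arrays entered it as well. Their median SD over the members was 0.49, against 0.19, 0.26 and 0.32 at low, medium and high U.

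The member that the one-way test called was HDLBP. It measured 2.98, 2.61 and 2.86 on the low U arrays, 3.09, 3.46 and 3.26 on the medium U arrays and 1.82, 2.13 and 2.26 on the high U arrays, against 0.31, 0.47 and 0.86 in the control. The high U arrays lay below all arrays of the other doses and above all control arrays. High U was lower than medium U by limma at -1.20 ± 0.20 (SE, unadjusted p = 0.000116, adjusted p = 0.40) and lower than low U at -0.74 ± 0.20 (unadjusted p = 0.00398, adjusted p = 0.89). Next in order were Aifm1, at 0.77 ± 0.26 (SE) for medium minus low U (unadjusted p = 0.0125, limma adjusted p = 1.0), and the ADAMTS13-like probe, at 0.69 ± 0.24 for medium minus low U and -0.60 ± 0.24 for high minus medium U. Their medium U arrays were 1.05, 1.73 and 1.23 for Aifm1 and 1.33, 1.62 and 1.61 for the ADAMTS13-like probe, and in both cases all of them lay above the low U arrays. HSPG2 and SLC27A2 had the next smallest unadjusted p for high minus low U, with differences of 0.47 ± 0.22 and 0.57 ± 0.27 (SE), and neither reached 0.05.

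**Figure D4:**
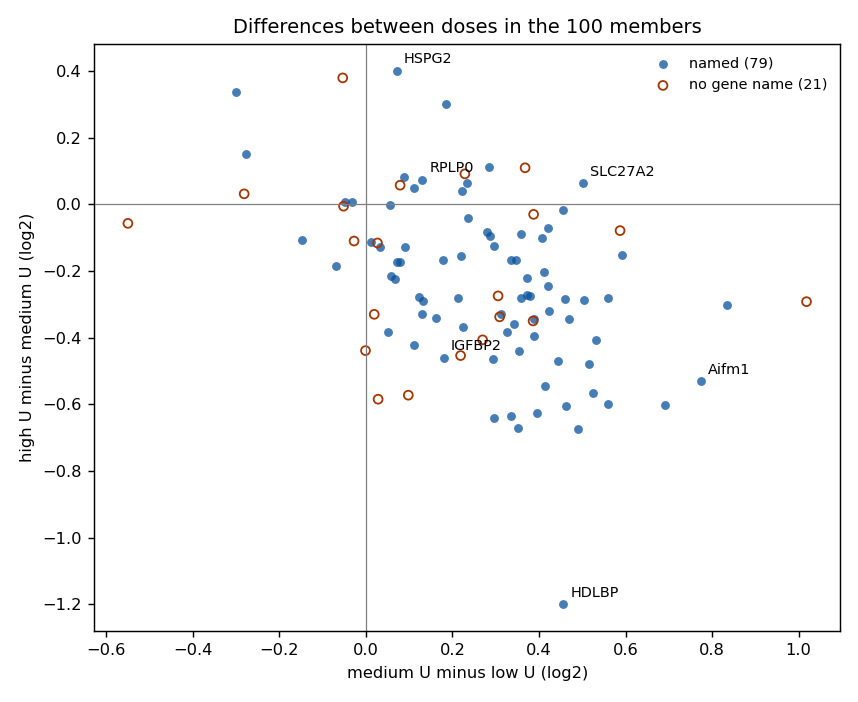
Difference between medium and low U (x axis, log2) and between high and medium U (y axis, log2) for each of the 100 members, with filled points for named and open circles for unnamed probes. Most points lie in the lower right, with 88 above 0 on the x axis and 82 below 0 on the y axis, and HDLBP stands lowest at -1.20.

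Although limma called no member between doses on values relative to the 75th percentile, the order of the group means was uneven over the members. The highest group mean was at medium U in 76 members, at high U in 14 and at low U in 10. Among the 1828 other always-detected probes without overlap these shares were 48.3%, 26.3% and 25.4%, and among all always-detected probes 29.3%, 35.4% and 35.3%. Among the probes tested that exceeded the control in the mean of the exposed arrays they were 41.0%, 25.3% and 33.7%. Medium U was above low U in 88 members, with a median difference of 0.29, and high U was below medium U in 82, with a median difference of -0.26, while high U was above low U in 50 of 100. The group means went up at each step from low to high U in 12 members and down at each step in 6. By role, medium U was highest in 9 of 10 members of the glucuronidation group, 5 of 5 of sugar and malate metabolism, 9 of 11 of the mitochondrial group, 7 of 8 of the endoplasmic reticulum group and 3 of 6 of translation, where high U was highest in the other 3. With spike-in scaling, which keeps the difference in array brightness, 0 of the 100 members were highest at high U, these 3 included, and 96 were highest at medium U. With normexp background correction 3 were highest at high U and 93 at medium U. The shares over other probes are not given for either setting, so these counts are not read as particular to the members.

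Single arrays carried much of this order. Medium U replicate 2 had the highest value of all arrays in 52 members and medium U replicate 3 in 24, and high U replicate 1 had the lowest exposed value in 56. Among the 1828 other always-detected probes without overlap the same counts were 501, 369 and 565. Without medium U replicate 2 the highest group mean was at medium U in 56 members, at high U in 23 and at low U in 21, and without high U replicate 1 the counts were 61, 32 and 7. Without medium U replicate 1 they were 90, 5 and 5, and without high U replicate 3 they were 83, 7 and 10. With single arrays left out, the same counts over other probes are not given here. Members are measured on the same arrays and are not replicates of the order, so no p-value is given for the counts of members.

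**Figure D5:**
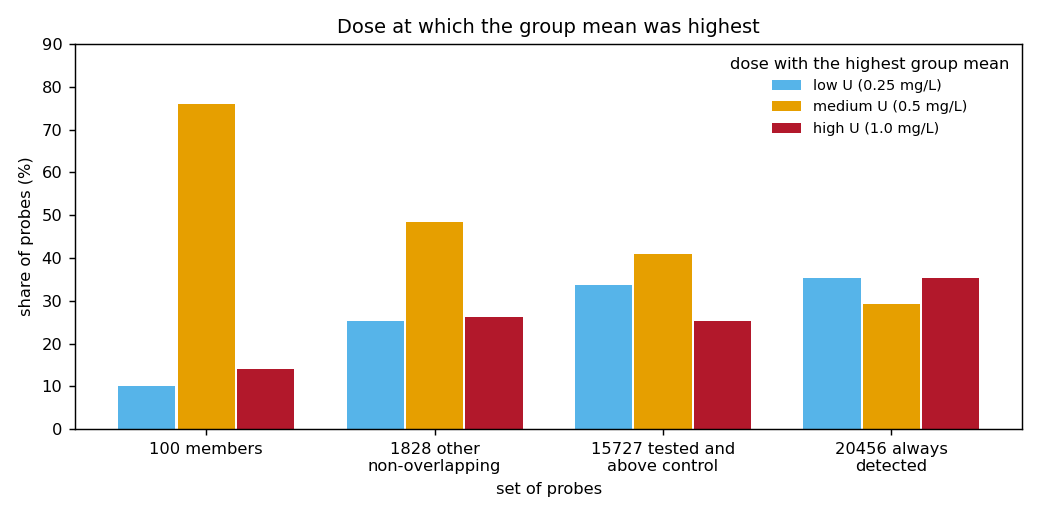
Share of probes (y axis, %) whose highest group mean was at low, medium or high U, for the members, the other non-overlapping always-detected probes, the tested probes above the control in the mean of the exposed arrays and all always-detected probes (x axis). The bar at medium U is 76% in the members and 29.3% in all always-detected probes.

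Probes of the same pathways, members included, were counted by lists of symbol prefixes among the 816 named and tested probes. The members were chosen for being higher, so they raise the counts and medians of the lists that hold them. Over all 816, of which 79 are members, 542 were called higher and 229 lower, and the median difference was 0.88. In the biotransformation list, which includes UGTs, cytochromes P450 and transporters, 16 of 18 probes were called higher and 2 lower, with a median of 1.82, and 9 were members. The 2 lower ones were cyp19a1 and the ABCC2 probe that was no member. In the oxidative phosphorylation list 14 of 16 were called higher and 1 lower (median 1.53, 5 members). Its prefixes missed mt-co3, which was called lower at -1.23. They also missed probes without a symbol, such as a further cytochrome c oxidase subunit VIIa-related probe called higher at 1.38. All 5 probes of the chaperone list were called higher (median 1.39, 2 members), and 22 of 27 of the ribosome and translation list (4 lower, median 0.90, 3 members). The chaperone prefixes missed the member hsc71 and further named probes for hsc71 and hsc70. The antioxidant list had 5 of 6 higher and 1 lower (median 1.31), the plasma protein list 8 of 10 higher and 1 lower (median 1.27), each with 1 member. In the cytoskeleton and vesicle traffic list 22 of 27 were higher and 3 lower (median 1.04, 2 members), and in the amino acid and lipid list 6 of 10 were higher and 3 lower (median 1.12, 1 member).

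Markers of cell types could be checked only among named probes. In the hepatocyte list 6 probes were named, all cytochromes P450, and no probe was named for ALB, APOA1 or APOB. Of the 6, 5 were called higher, 2 of them members chosen for being higher. The 1 called lower was the aromatase probe cyp19a1. Of all 816 named and tested probes 542 were called higher, and these P450 probes are not read here as markers of hepatocytes. One probe of the erythrocyte list was named, hbb1, a beta globin, and was called lower at -1.28. The pancreas list found only Prss35, by its prefix PRSS, and it was called lower at -0.94. It is described as an inactive serine protease and is not read here as a marker of pancreas. No named probe had a symbol that matched the short leukocyte, muscle, or biliary and endothelial lists. Named probes such as CD68, PRF1 (perforin) and a fast myotomal muscle actin lay outside these lists and were not counted. The part of a shift in cell types in the differences above was not tested.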

How the data were processed

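Total liver RNA of 12 fish samples was hybridised to 1-colour (Cy3) arrays. Per the labels, the authors scanned these with Feature Extraction 10.7 and deposited a background-subtracted intensity per spot, not scaled between arrays, and a separate log2 value table of 40267 probes, whose scaling is not given in the sources used here and which served only as an alternative and for names. Starting from the intensities, control spots were dropped, log2 values were set relative to each array's 75th percentile, outlier spots were removed and spots of a probe averaged. Members were selected on all spots. A probe was tested where at least 1 group had it well above background on each array. limma 3.58.1 in R 4.3.3 fitted the 4 groups together (29456 probes, Benjamini-Hochberg, adjusted p under 0.05, at least 1.5-fold, two-sided). The methods print a threshold of 0.5, which was tried as an alternative. P-values measure the spread between samples within a group, of which there were only 3, and this number limits the precision. They do not measure a spread between tanks. As no replicate tanks are described, dose and tank cannot be told apart.

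The members, role groups and gene lists were chosen with earlier results of these data known. Genes named are the 10 largest differences, ranks around the limit of the selection, members with a gene name, and those with extreme spread, brightness or p between doses; a few of these are not reported here. Names came from matching 1995 rows of fold changes in the study's DEG list to fold changes computed from the value table: 1784 rows matched 1 probe, 161 of 211 ambiguous rows were settled across doses, and 881 probes were named. The study's own fold changes and p-values were used for nothing else. Replicate numbers did not pair the arrays, whereas slides did: arrays of a slide deviated together (mean r 0.31). The steps were run on simulated data with independent noise, equal spread in all groups and no slide effect. The planted change was larger than the members' median dose steps, so that run does not bear on the contrasts between doses. Software for tables was Python 3.11.15 with pandas 2.3.3 and numpy 2.4.6; plots used matplotlib 3.10.9. No probe sequences were used here.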

Additional observations from a re-analysis of the deposited data

Results flagged for a closer look

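HDLBP differed between doses under the methods' one-way test with its post hoc step, though not by limma after adjustment. Its high U arrays were below its medium U arrays by a log2 difference of -1.20 and below its low U arrays by -0.74, while its medium U arrays were above the low U arrays by 0.46. It was the only member called between doses by that test.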

How the results depend on the processing

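Under the alternatives run, no exposed minus control difference of a member changed sign. The selection largely fixed this in advance, so nothing is read from it. The dose with the highest group mean did change in some members. The alternatives chosen after seeing the data were normexp on the median spot intensity, which replaced the planned version on the mean spot intensity, not run here, and averaging spots before the log. The median difference over the members was 2.59 with spike-in scaling and 1.84 to 2.17 when single arrays were left out. With normexp the differences ran from 0.62 to 2.83, with a median of 1.74. The dim probe of contig 5463383, second in rank, then differed by 1.67, against 2.61 in the main values. With only the compared groups in the fit, 0 members were called at low U and 0 at high U, but 95 at medium U. Without single arrays, the members called were 82 to 98 in the low U group, 92 to 100 in the medium U group, 50 to 99 in the high U group and 97 to 100 over all exposed arrays, with 50 without high U replicate 2 and 60 without high U replicate 3. Between medium and high U, 45 members were called with spike-in scaling, which keeps the difference in array brightness, and 1 each without the filter on dim probes, at an adjusted p under 0.5 and by the methods' one-way test, which also called 1 for high against low U. Leaving out single arrays gave 0 members in each contrast between doses, but without medium U replicate 2 limma called 5 probes in all for medium against low U and 6 for high against low U. Repeating the selection kept 66 of the members with normexp, 48 without the filter and 72 to 99 without single arrays. The highest group mean was at high U in 3 members with normexp and 0 with spike-in scaling, and in 5 to 32 without single arrays. It was at low U in 4 members under each of both, and in 5 to 21 without single arrays, and at medium U in 56 to 90. Spike-in scaling moved the share of higher among all probes called to 98.8% and normexp to 78.3%, against 59.4%. For most of these alternatives the share of all tested probes is not given beside the members. Their member counts are therefore not read as results about the members.

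With the replicate number as a block, 94, 99, 87 and 100 members were called at low, medium and high U and over all exposed arrays, and 0 between doses. Arrays of the same number did not deviate together (r -0.41 to 0.57), and 7 of 12 correlated best with their own number. With the slide as a block, the counts were 98, 100, 98, 100 and 0. For the counts against the control with either block, the share of all tested probes is not given here, and nothing is read from them. Among the single members, 148 of 2100 differences moved by over 1 SD, 97 of them with spike-in scaling and 46 with normexp.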

Other observations

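Among the gene lists counted, 3 held no member. In the list of mitochondrial import and metabolism 11 of 16 named probes were called higher and 3 lower by limma (median 0.77), and in that of RNA polymerase, splicing and RNA handling 9 of 11 were higher and 2 lower (median 1.18). In the proteasome and ubiquitin list 6 of 13 were higher and 7 lower (median -0.62). No named probe had a symbol that matched the short metal handling or antigen presentation lists. Named probes outside these lists, such as SLC40A1, an iron-regulated transporter, were not counted. The paper itself reports antigen presentation genes, TAP1 among them, as up-regulated, so the empty lists do not show that such genes were unchanged.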
